A study of Mus musculus with 8 samples.

Results

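Glycolysis and hypoxia response genes encode the glucose transporters, the enzymes that turn glucose into pyruvate and lactate, the kinases that steer pyruvate away from mitochondria, and the oxygen-sensing machinery with its direct target genes. A list of 36 such genes was read on mouse whole-transcript arrays, and 32 of them had a transcript cluster that names that gene alone, out of 19938 genes measured in this way. Gpi1, Pfkfb1, Gapdh and Eno1 had no such cluster and were not analysed here. The cells were naive CD4 T cells of wild-type mice (n = 4 arrays) and of mice with a T cell-specific conditional deletion of Bcl6, labelled Bcl6-/- (n = 4 arrays, called Bcl6 cKO here). Cells of both groups were stimulated with antibodies to CD3 and CD28 for 24 hours before RNA was taken. The design asks which genes the transcriptional repressor Bcl6 controls in these cells. The sources used here do not give the Cre driver, the deleted exons, or the strain, age and sex of the mice. Nor do they state that each array is a separate mouse, so the spread behind each p-value may be in part technical. Within each genotype the arrays differed in Y-linked signal, so not all of them can be repeats of the same RNA sample. How many mice they stand for is not known.

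A naive CD4 T cell that is activated through its antigen receptor switches to rapid glycolysis with lactate release, even where oxygen is plentiful. The transcription factors Myc and Hif1a drive many of the genes of this switch. Hif1a is marked for degradation by the prolyl hydroxylases Egln1 and Egln3 when oxygen is present; when it is stable, it pairs with Arnt and binds the hypoxia response element, whose core is ACGTG or GCGTG. Bcl6 is known to oppose parts of the glycolytic program in T cells.

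Most promoters of these genes carried that core. In the RefSeq promoter windows of GRCm38.p6, from 250 bases before to 50 bases after a start site, ACGTG or GCGTG was present on either strand for 29 of the 31 genes with a window, against 55.3% of 15563 array genes with a window and 46.7% of all 27025 genes. Slc2a3 had no window. A gene was counted if any of its windows had a match, and these genes had 1.39 windows each, against 1.22 for all genes. The median GC content was 62.3% in the windows of these genes and 57.7% in those of the array genes. The part of window number and GC content in the difference was not tested. The E-box CACGTG, which Myc binds and which contains ACGTG on both strands, was present for 6 of the 31 genes, against 9.52% of the array genes. TTCNNNGAA, a palindrome of the type found in Bcl6 and STAT motifs, was present for 2 of the 31, against 9.01%. A match of letters does not show that a factor binds there. A total of 4 windows are printed 5′ to 3′ on the gene's strand, with each ACGTG or GCGTG core, read on either strand, in capitals. Matches were counted on both strands, so each CACGTG counts as 2. Ldha, which makes lactate, held the most matches in 1 window (7, with 2 CACGTG, at chr7:46845554-46845853, plus strand). A window of Hk1 held 5 with no CACGTG, so the lead of Ldha rests on this way of counting. Slc16a1, the lactate exporter, held 5 matches, with 1 CACGTG (chr3:104638414-104638713, plus strand). Pdk1, a brake on mitochondrial pyruvate use, held 2 in the richer of its 2 windows (chr2:71872974-71873273, plus strand). Tpi1, whose genotype difference had the smallest p of these genes, held none (chr6:124814109-124814408, minus strand).
Ldha: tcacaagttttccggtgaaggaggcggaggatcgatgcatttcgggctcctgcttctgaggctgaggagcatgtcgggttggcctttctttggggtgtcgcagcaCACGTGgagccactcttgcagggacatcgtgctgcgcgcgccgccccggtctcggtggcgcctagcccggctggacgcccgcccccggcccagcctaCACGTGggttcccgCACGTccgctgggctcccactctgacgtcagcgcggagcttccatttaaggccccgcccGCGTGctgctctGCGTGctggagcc
Slc16a1: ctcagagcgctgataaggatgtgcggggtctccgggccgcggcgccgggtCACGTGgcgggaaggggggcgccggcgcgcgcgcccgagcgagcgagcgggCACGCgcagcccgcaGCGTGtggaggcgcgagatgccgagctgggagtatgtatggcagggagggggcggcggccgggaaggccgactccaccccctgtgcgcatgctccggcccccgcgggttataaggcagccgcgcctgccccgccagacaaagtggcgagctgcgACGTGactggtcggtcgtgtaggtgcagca
Pdk1: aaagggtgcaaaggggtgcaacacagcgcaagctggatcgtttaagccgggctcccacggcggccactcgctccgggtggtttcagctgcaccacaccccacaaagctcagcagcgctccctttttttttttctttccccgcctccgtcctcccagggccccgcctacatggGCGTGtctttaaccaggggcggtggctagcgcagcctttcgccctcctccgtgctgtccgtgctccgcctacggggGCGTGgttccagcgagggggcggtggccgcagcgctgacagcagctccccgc
Tpi1: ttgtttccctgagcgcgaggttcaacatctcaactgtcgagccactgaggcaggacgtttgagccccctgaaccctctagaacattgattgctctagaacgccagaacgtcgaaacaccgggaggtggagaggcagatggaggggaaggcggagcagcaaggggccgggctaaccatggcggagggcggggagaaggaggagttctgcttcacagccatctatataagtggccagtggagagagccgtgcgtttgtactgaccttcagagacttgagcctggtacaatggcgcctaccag

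The arrays were checked before the genes were compared. The signal of Bcl6 was 8.47, 8.33, 8.56 and 8.10 (log2) on wild-type arrays 1 to 4 and 9.05, 8.67, 8.83 and 8.40 on Bcl6 cKO arrays 1 to 4, so the arrays labelled knockout had the higher mean, by 0.37 (exact two-sided permutation p = 0.0857, smallest possible 0.0286; limma adjusted p = 0.337). With sex as a term the difference was 0.57 (limma adjusted p = 0.146). The deleted exons are not stated, and a cluster that reads exons outside them checks nothing about the labels. The 9 measured CD4 T cell markers had means of 11.3 to 13.2. All 22 markers of B, NK, myeloid, dendritic and red cells lay under 8.12, the 95th percentile of 204 values from genes of other organs and from Y-linked genes on arrays where those should be silent. Of the CD8 T cell genes, Cd8a read 6.90 to 7.14 on the 8 arrays, and Cd8b1 read 10.90 to 11.12 in wild type and 10.41 to 10.78 in Bcl6 cKO (log2 difference -0.47, adjusted p = 0.0541). The Y-linked genes were low on wild-type array 4 and Bcl6 cKO arrays 2 to 4 and high on the other 4 arrays, so sex and genotype overlapped in part. In bulk RNA, fewer cells that express a gene and less of its RNA per cell cannot be told apart.

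None of the 32 genes passed an adjusted p of 0.05 between Bcl6 cKO and wild type (limma, Benjamini-Hochberg over all genes), where 0.221% of all genes tested did. The smallest adjusted p among them was 0.319, for Tpi1. These 32 genes of glycolysis, lactate export, the HIF system and its targets therefore showed no change that could be told from the spread between arrays. The measured differences were small. Log2 differences, Bcl6 cKO minus wild type, ran from -0.22 (Slc2a3) to 0.44 (Egln3, whose wild-type mean was under the background level) with a median of 0.03, against a median of 0.00 over all genes (0.0025), and 20 of the 32 were under 0.1 in size. For 31 of the 32 the 95% confidence interval lay within 1.5-fold in either direction, as it did for 97.3% of all genes; the exception was Egln3. A total of 20 genes had means above wild type (62.5%, against 51.0% of all genes) and 12 below (against 47.7% of all genes).

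**Figure D1:**
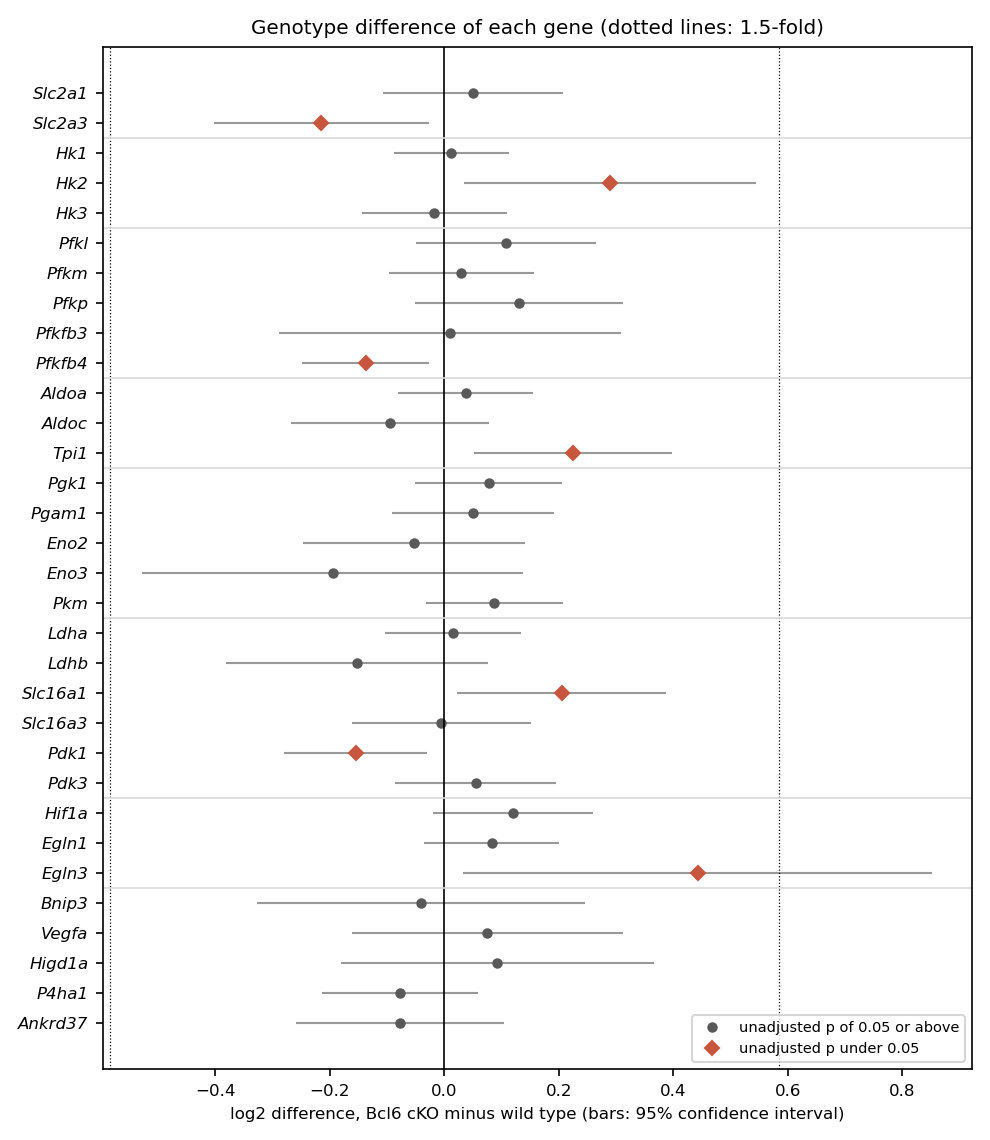
Log2 difference (Bcl6 cKO minus wild type, n = 4 arrays each) of the 32 genes, ordered by role from glucose uptake at the top to hypoxia targets at the bottom; bars are 95% confidence intervals from limma, dotted lines mark 1.5-fold, and diamonds mark the 7 genes with an unadjusted p under 0.05. The interval of Egln3 is the only one that crosses a 1.5-fold line.

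Before adjustment, 7 of the 32 genes had a p under 0.05 (21.9%, against 10.8% of all genes). Of these, 4 had higher means in Bcl6 cKO (Tpi1, Hk2, Slc16a1 and Egln3; 4.67% of all genes did) and 3 had lower ones (Pfkfb4, Pdk1 and Slc2a3; 6.17% of all genes). The groups did not overlap for 1 gene of the 32, Pfkfb4 (lower in Bcl6 cKO), against 5.97% of all genes in either direction and 3.64% in that direction. These 7 are described with the value on every array, and which genes reach that p depends on single arrays. Without Bcl6 cKO array 1 there were 6 higher (the same 4 with Pfkl and Pfkp; 5.82% of all genes) and 2 lower (Pdk1 and Slc2a3; 6.15%), Hk2 came to an adjusted p of 0.0914, and 0.697% of all genes passed. Without wild-type array 4 there were 2 higher (Hif1a and Tpi1; 5.13% of all genes) and 4 lower (Eno3, Pdk1, Pfkfb4 and Slc2a3; 6.87%). Without wild-type array 2 there were 4 higher (4.12%) and 1 lower (4.94%), without Bcl6 cKO array 2 there were 2 (4.53%) and 1 (6.42%), without Bcl6 cKO array 3 there were 2 (3.16%) and 2 (5.28%), and without Bcl6 cKO array 4 there were 0 (3.19%) and 2 (4.48%). Without wild-type array 4, wild-type array 2 and Bcl6 cKO arrays 2, 3 and 4 in turn, 0.0602%, 0.0903%, 0.11%, 0.0552% and 0.0552% of all genes passed after adjustment. None of the 32 did in any of these 6 fits.

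Glucose enters T cells through 2 main transporters, Slc2a1 (GLUT1), the carrier induced on activation, and Slc2a3 (GLUT3). Slc2a1 read 11.60, 11.53, 11.63 and 11.32 (log2) on wild-type arrays 1 to 4 and 11.48, 11.59, 11.60 and 11.61 on Bcl6 cKO arrays 1 to 4. Its groups overlapped and differed by 0.05 ± 0.07 (log2 difference, SE), with a 95% interval of -0.11 to 0.21. Slc2a3 read 10.12, 9.92, 10.01 and 9.68 on the wild-type arrays and 9.79, 9.65, 9.72 and 9.71 on the Bcl6 cKO arrays. All Bcl6 cKO arrays were below wild-type arrays 1 to 3, and wild-type array 4 lay among them. The difference was -0.22 ± 0.08 and did not pass (adjusted p = 0.384).

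Hexokinases trap glucose in the cell by phosphorylation. Hk2, the form induced by growth signals and hypoxia, read 8.84, 8.91, 8.87 and 8.61 in wild type and 8.76, 9.13, 9.37 and 9.13 in Bcl6 cKO. Bcl6 cKO arrays 2 to 4 were above every wild-type array and Bcl6 cKO array 1 was among them. The mean was 1.22-fold higher in Bcl6 cKO (log2 difference 0.29 ± 0.12, SE) and did not pass (adjusted p = 0.389). Hk1, the constitutive form, had means of 13.53 and 13.54 in its brightest cluster, differed by 0.01 and varied by only 0.08 over the 8 arrays. That cluster may read another copy, and a second Hk1 cluster had much lower means of 10.36 and 10.37. Hk3 differed by -0.02 at means of 6.81 and 6.80, which were not shown to stand above background.

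Phosphofructokinase commits sugar to glycolysis, and its liver (Pfkl), muscle (Pfkm) and platelet (Pfkp) subunits were all measured. Pfkl read 9.82, 9.99, 9.90 and 9.79 in wild type and 9.80, 10.04, 10.06 and 10.03 in Bcl6 cKO, with Bcl6 cKO arrays 2 to 4 above all wild-type arrays (difference 0.11 ± 0.07). Pfkp read 10.81, 11.13, 10.96 and 10.93 against 10.90, 11.19, 11.09 and 11.17 (difference 0.13 ± 0.08) and Pfkm had means of 8.73 and 8.76 (difference 0.03 ± 0.06), with overlapping groups. The Pfkfb enzymes make and remove fructose 2,6-bisphosphate, the activator of phosphofructokinase. Pfkfb4 read 8.16, 8.19, 8.10 and 8.14 in wild type and 7.93, 8.01, 8.03 and 8.07 in Bcl6 cKO. Every Bcl6 cKO value was below every wild-type value, and the mean of 8.01 in Bcl6 cKO lay under the 8.12 background level. The difference of -0.14 ± 0.05 did not pass (adjusted p = 0.341). Pfkfb3, the form with the highest kinase activity, read 9.69, 9.24, 9.73 and 9.05 in wild type and 9.50, 9.42, 9.47 and 9.36 in Bcl6 cKO. Its wild-type arrays spread over both sides of the narrow Bcl6 cKO group, and the means differed by 0.01 ± 0.14.

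Aldolase splits the 6-carbon sugar and triose phosphate isomerase interconverts the resulting trioses. Tpi1, the isomerase, read 11.60, 11.69, 11.74 and 11.53 in wild type and 11.66, 11.85, 11.97 and 11.98 in Bcl6 cKO. Bcl6 cKO arrays 2 to 4 were again above all wild-type arrays and array 1 was among them. Its mean was 1.17-fold higher (log2 difference 0.23 ± 0.08, 95% interval 0.05 to 0.40, adjusted p = 0.319). Aldoa, the main aldolase of most tissues, read 13.21, 13.14, 13.17 and 13.05 in wild type and 13.15, 13.12, 13.23 and 13.22 in Bcl6 cKO, a difference of 0.04 ± 0.05. Aldoc, the brain aldolase, was not shown above background (7.56 and 7.46) and differed by -0.10 ± 0.08.

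The later steps of glycolysis yield ATP and pyruvate, and none of its 5 measured genes had an unadjusted p under 0.05. Pkm, pyruvate kinase, had the smallest p of them and read 11.83, 11.80, 11.79 and 11.74 in wild type and 11.78, 11.84, 11.96 and 11.93 in Bcl6 cKO. Its difference was 0.09 ± 0.05 (unadjusted p = 0.137, adjusted p = 0.622). Phosphoglycerate kinase Pgk1 read 12.66, 12.62, 12.73 and 12.56 against 12.68, 12.65, 12.83 and 12.72, and phosphoglycerate mutase Pgam1 read 12.36, 12.34, 12.39 and 12.20 against 12.33, 12.28, 12.38 and 12.50. Both groups overlapped for each, at differences of 0.08 ± 0.06 and 0.05 ± 0.06. The enolase Eno3, known from muscle, spread most in this part of the pathway. It read 11.34, 11.10, 11.42 and 10.64 in wild type and 11.02, 10.89, 10.73 and 11.08 in Bcl6 cKO, with wild-type array 4 the lowest of all (difference -0.20 ± 0.15). Eno2, the neuronal enolase, was not shown above background (7.33 and 7.28) and differed by -0.05 ± 0.09.

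Lactate dehydrogenase turns pyruvate into lactate. Ldha read 13.50, 13.52, 13.53 and 13.45 in wild type and 13.44, 13.46, 13.61 and 13.55 in Bcl6 cKO. Its difference was 0.02 ± 0.05, with a 95% interval of -0.10 to 0.13. Its promoter window, printed above, held 7 matches to the hypoxia response core, with each CACGTG counted on both strands. Ldhb, the form that favours pyruvate, read 9.32, 9.03, 9.41 and 9.03 against 9.17, 9.06, 9.13 and 8.82, a difference of -0.15 ± 0.10. The monocarboxylate transporters carry lactate out. Slc16a1 (MCT1) read 11.47, 11.46, 11.50 and 11.18 in wild type and 11.46, 11.59, 11.73 and 11.65 in Bcl6 cKO. Wild-type array 4 was the lowest and Bcl6 cKO arrays 2 to 4 were above all wild-type arrays, for a difference of 0.21 ± 0.08 that did not pass (adjusted p = 0.392). Slc16a3 (MCT4), the hypoxia-induced exporter, had close means of 9.21 and 9.20 (difference -0.01 ± 0.07).

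Pyruvate dehydrogenase kinases keep pyruvate out of the mitochondrion, and Pdk1 is a well known Hif1a target. Pdk1 read 9.81, 10.01, 9.96 and 9.93 in wild type and 9.74, 9.72, 9.83 and 9.80 in Bcl6 cKO. Wild-type array 1 lay within the Bcl6 cKO range and wild-type arrays 2 to 4 lay above it. The difference of -0.16 ± 0.06 did not pass (adjusted p = 0.344). Pdk3 read 10.90, 10.81, 10.95 and 10.68 against 10.91, 10.85, 10.94 and 10.86, a difference of 0.06 ± 0.06.

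**Figure D2:**
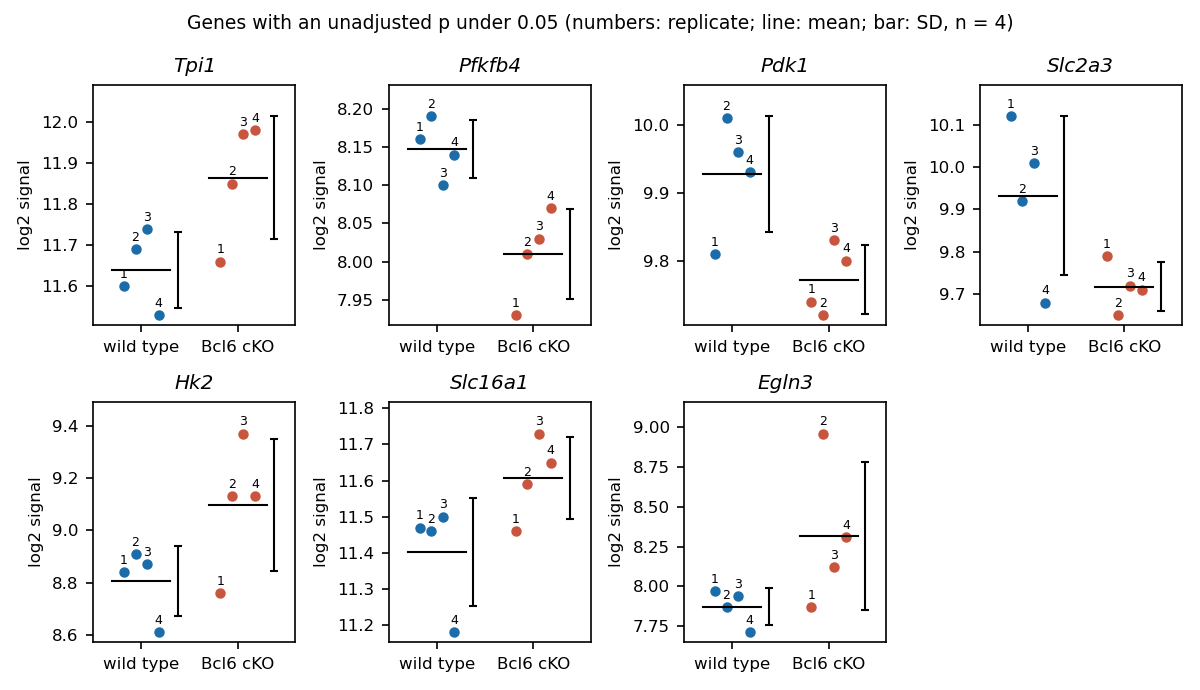
Log2 signal of the 7 genes with an unadjusted p under 0.05, each point 1 array with its replicate number, the horizontal line the group mean and the bar beside it the SD (n = 4); axes do not start at 0. For Tpi1, Hk2, Slc16a1 and Egln3, Bcl6 cKO array 1 lies with the wild-type arrays, and Pfkfb4 is the gene whose groups do not overlap.

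The 3 genes listed under oxygen sensing, Hif1a, Egln1 and Egln3, all had means above wild type, and none passed. Of 12 further oxygen-sensing genes, 5 had means above wild type and 6 below. Hif1a, the oxygen-labile subunit of the factor itself, read 12.59, 12.79, 12.71 and 12.87 in wild type and 12.88, 12.88, 12.87 and 12.81 in Bcl6 cKO, a difference of 0.12 ± 0.06 (adjusted p = 0.540). Its Bcl6 cKO arrays were tight, and the wild-type arrays reached from well below them to their level. Egln1, the main hydroxylase that marks Hif1a, read 10.32, 10.32, 10.35 and 10.21 against 10.30, 10.40, 10.45 and 10.38 (difference 0.08 ± 0.05). Egln3, a hydroxylase that is itself a Hif1a target, read 7.97, 7.87, 7.94 and 7.71 in wild type and 7.87, 8.96, 8.12 and 8.31 in Bcl6 cKO. Its mean difference of 0.44 ± 0.19 rested in part on the single value of 8.96 on Bcl6 cKO array 2. The adjusted p was 0.414, and without that array the difference was 0.23. The wild-type mean of Egln3, 7.87, was under the background level of 8.12, so this difference in signal may not be the difference in RNA.

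The 5 genes listed as hypoxia targets showed no common direction. Of these 5, 2 had means above wild type and 3 below, with differences between -0.08 and 0.09 and no unadjusted p under 0.05. Bnip3, which drives removal of mitochondria, read 8.66, 8.66, 8.82 and 8.2 in wild type and 8.80, 8.55, 8.46 and 8.37 in Bcl6 cKO. Vegfa, the angiogenic growth factor, read 8.80, 8.77, 8.78 and 8.52 against 8.51, 8.98, 8.71 and 8.97. In both genes wild-type array 4 stood below the other wild-type arrays and the groups overlapped (differences -0.04 ± 0.13 for Bnip3 and 0.08 ± 0.11 for Vegfa). P4ha1, a collagen prolyl hydroxylase subunit, had the smallest p of the 5 (0.236) and read 10.17, 10.21, 10.18 and 10.11 against 10.12, 10.23, 10.04 and 9.97 (difference -0.08 ± 0.06). Higd1a, a mitochondrial protein induced by low oxygen, had means of 7.92 and 8.01 (difference 0.09 ± 0.12), and Ankrd37 had means of 8.12 and 8.04 (difference -0.08 ± 0.08). Neither was shown above background, Ankrd37 only narrowly.

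**Figure D3:**
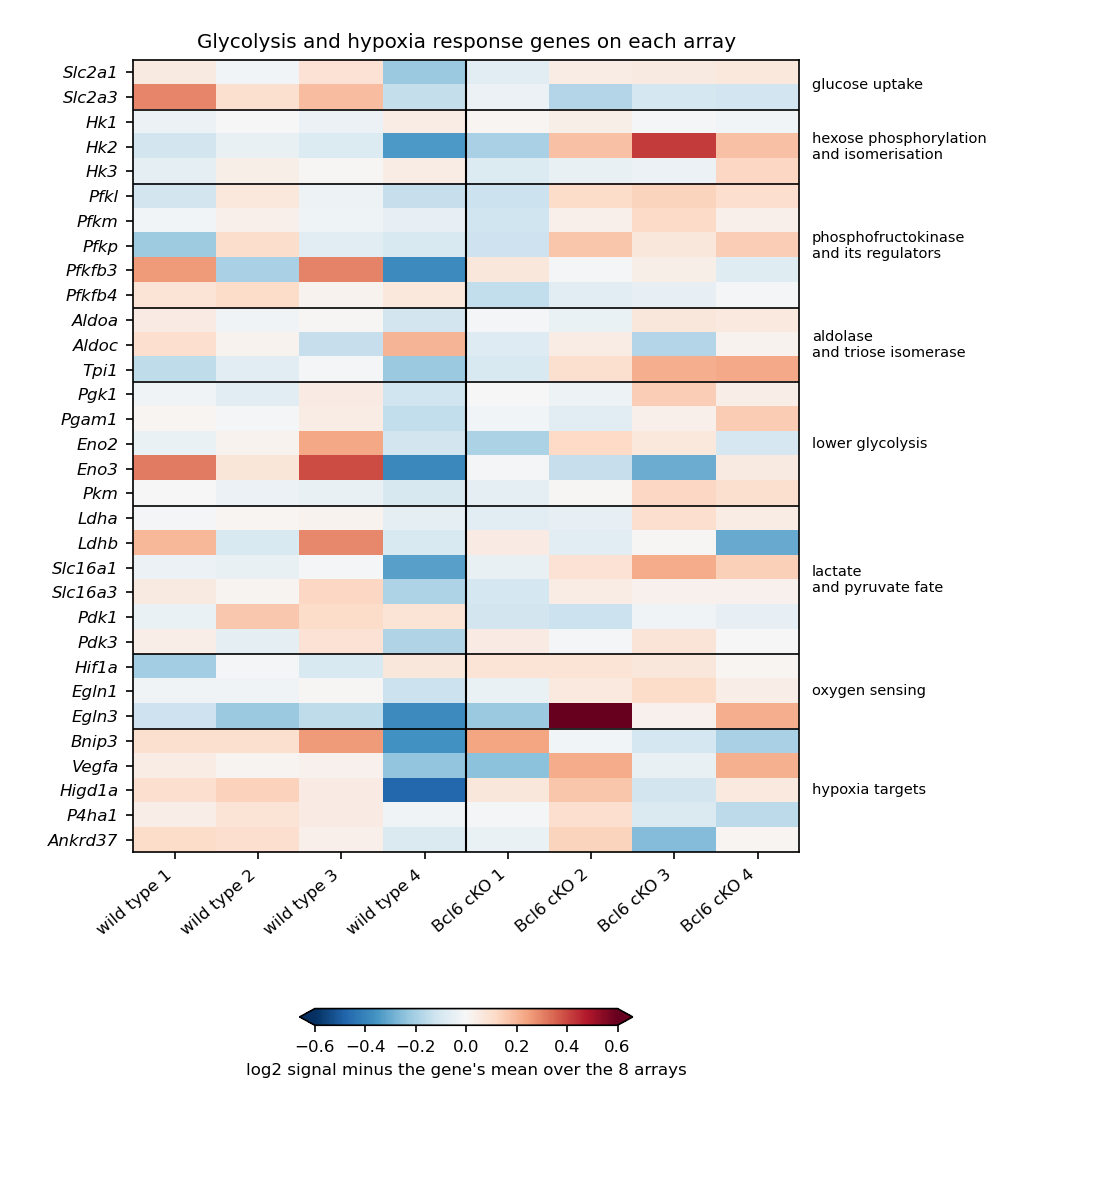
Log2 signal of each gene on each array minus its mean over the 8 arrays (red above, blue below, colours end at 0.6 in either direction), with genes grouped by role and a line between wild type and Bcl6 cKO. Wild-type array 4 is blue for most genes, and the 3 oxygen-sensing genes are the only role group whose mean was higher on every Bcl6 cKO array (10.35 to 10.75) than on every wild-type array (10.26 to 10.33). Each of these 3 genes taken alone overlapped between the groups. The 10.75, on Bcl6 cKO array 2, includes the single Egln3 value of 8.96. This order was picked out after the values were seen and was not tested.

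The arrays differed among themselves in these genes within each genotype. On wild-type array 4, 17 of the 32 genes had their lowest value of all 8 arrays (53.1%), against 21.8% of all genes, and 24 of the 32 were lower there than on each of the other wild-type arrays (75%, against 33.4% of all genes). The median of the 32 genes, each taken relative to its own median over the arrays, was -0.11 (log2) there and between -0.05 and 0.03 on the other 7 arrays, while the same median over all genes was between -0.01 and 0.02 on every array. Wild-type array 4 also had the widest spread over all genes (interquartile range 0.18, against 0.085 to 0.115) and the lowest mean of 19 proliferation genes, 9.52, against 9.68 to 10.29 elsewhere. All 19 proliferation genes had Bcl6 cKO means above wild type, with a median log2 difference of 0.32 over all arrays, 0.04 within the arrays of high Y-linked signal and 0.66 within those of low. Of the 19, 7 were higher at an unadjusted p under 0.05 (4.67% of all genes) and none passed (smallest adjusted p = 0.226). Of all genes 20.3% also had their highest value on wild-type array 4, as did 2 of the 32 (6.25%). Bcl6 cKO array 1 was the next lowest in these genes. It held the lowest value for 6 of the 32 (18.8%, against 10% of all genes), and Bcl6 cKO arrays 2 to 4 were each above it for 16 of the 32 (50%, against 28.6%). Its proliferation mean of 9.85 was not the lowest of its group, since array 2 read 9.80. The part of proliferation and array spread in the differences of the 32 genes was not tested.

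**Figure D4:**
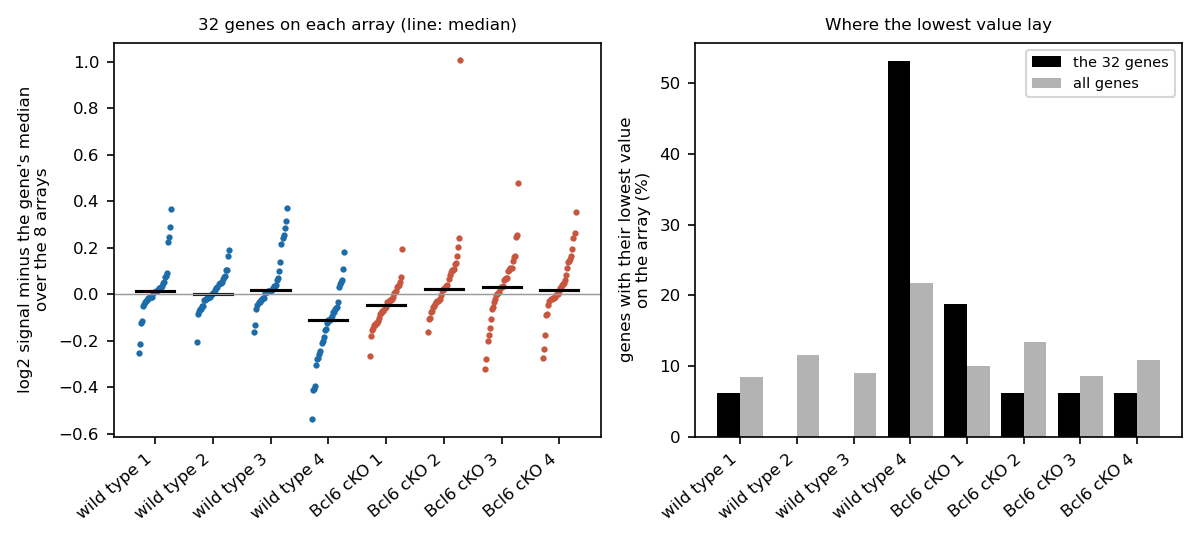
Left, log2 signal of the 32 genes on each array relative to each gene's median over the 8 arrays, 1 point a gene, with the median as a line (-0.11 on wild-type array 4). Right, percentage of the 32 genes (black) and of all 19938 genes (grey) whose lowest value lay on that array, which is 53.1% against 21.8% for wild-type array 4.

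These arrays bear on the genotype difference because wild-type array 4 is the 1 wild-type array, and Bcl6 cKO array 1 the 1 knockout array, on its side of the Y-linked split. Within the 4 arrays of high Y-linked signal, where Bcl6 cKO array 1 stands against wild-type arrays 1 to 3, the median difference of the 32 genes was -0.07, none had a higher mean at an unadjusted p under 0.05 (1.67% of all genes) and 4 had a lower one (2.61% of all genes). Within the 4 arrays of low Y-linked signal, where Bcl6 cKO arrays 2 to 4 stand against wild-type array 4, the median difference was 0.18, 12 of the 32 had a higher mean at an unadjusted p under 0.05 (37.5%, against 12.1% of all genes) and none a lower one (7.55% of all genes). No gene of the 32 passed after adjustment in either, the nearest being Slc16a1 in the second at an adjusted p of 0.052, and the fit takes the spread of a lone array from the other arrays. The share of all genes that passed was 0.0% in the first (332 genes higher and 520 lower at an unadjusted p under 0.05) and 0.216% in the second. The test of the difference between both settings gave 10 of the 32 at an unadjusted p under 0.05 and higher in the second (7.81% of all genes) and none lower (4.02%). None passed after adjustment (smallest adjusted p = 0.344, limma; 0.00502% of all genes). Each comparison rests on 1 array for one of its groups. In the second that array is wild-type array 4, which was low in many of these genes, so the count there is given as a description. For Hk2, Pfkl, Tpi1, Slc16a1, Egln1 and Egln3, Bcl6 cKO arrays 2 to 4 were also above wild-type arrays 1 to 3. The rest of the genes counted there did not have this order. Sex, array 4 and array 1 cannot be told apart here.

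Hk2 shows how much hangs on those arrays. Its difference was -0.11 within high and 0.60 within low Y-linked signal, and 0.24 over all arrays with sex as a term. Slc16a1 gave -0.02, 0.48 and 0.23, Tpi1 -0.02, 0.40 and 0.19, and Egln3 -0.06, 0.75 and 0.35 in the same order. The 3 genes with lower means varied in this. Pfkfb4 differed by -0.22, -0.10 and -0.16, and Pdk1 by -0.19, -0.15 and -0.17. Every Bcl6 cKO value of Pfkfb4 was below every wild-type value, so any split of these arrays gives it a negative difference. Pdk1 was picked from the same values, with only wild-type array 1 inside the Bcl6 cKO range. The signs of both genes are therefore a description and not a further test. Slc2a3 differed by -0.23, 0.01 and -0.11, and with sex as a term its unadjusted p was 0.185. With sex as a term 4 of the 32 had an unadjusted p under 0.05 (Bnip3 and Slc16a1 higher, 4.78% of all genes; Pdk1 and Pfkfb4 lower, 5.19%), and none passed after adjustment (0.0502% of all genes).

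**Figure D5:**
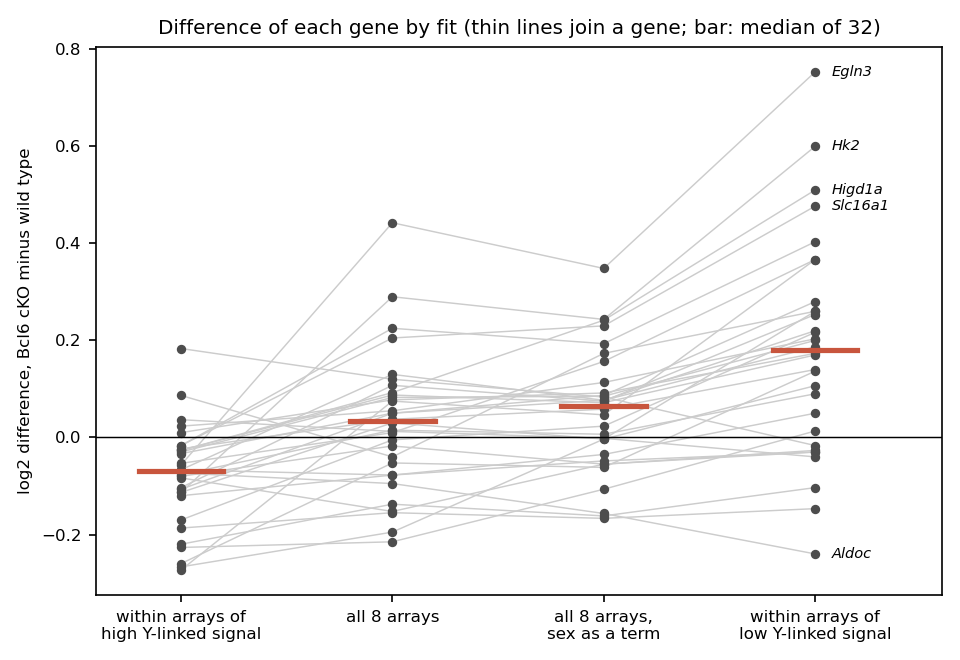
Log2 difference (Bcl6 cKO minus wild type) of each of the 32 genes within the arrays of high Y-linked signal (1 Bcl6 cKO against 3 wild-type arrays), over all 8 arrays, over all 8 with sex as a term, and within the arrays of low Y-linked signal (3 Bcl6 cKO arrays against 1 wild-type array); lines join a gene and bars mark the medians of -0.07, 0.03, 0.07 and 0.18.

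The probes of 7 of these genes may also read related sequences. Hk1, Pgk1, Pgam1, Pkm, Ldhb, Bnip3 and Higd1a each had 2 or 3 clusters under their symbol, and for each the brightest one, used above, had cluster numbers whose neighbours all belong to genes of another chromosome. The differences of the clusters that lie among genes of the same chromosome were 0.01 for Hk1, 0.08 for Pgk1 and Pkm, 0.07 for Pgam1, -0.10 for Ldhb, 0.05 for Bnip3 and 0.01 for Higd1a. Bnip3 changed its sign between clusters (-0.04 against 0.05), and none of these passed. Levels differed between clusters most for Hk1, whose cluster among genes of its own chromosome had means of 10.36 and 10.37. That of Bnip3 had means of 7.64 and 7.69, under the 8.12 background level. The values of these 7 genes are therefore uncertain as to the copy they read.

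Other genes of the same pathways gave 1 that passed. Ndrg1, a stress gene induced by hypoxia, fell 1.53-fold, from 9.75, 9.61, 9.65 and 9.74 in wild type to 9.08, 9.07, 9.15 and 9.0 in Bcl6 cKO (log2 difference -0.61 ± 0.05, adjusted p = 0.0031, limma). It passed in all 8 fits that left out 1 array and with sex as a term (limma adjusted p = 0.0131). It was named because it passed on these same arrays, so these fits describe it and do not test it further. Its difference was -0.59 within high Y-linked signal, where it did not pass (adjusted p = 0.408), and -0.67 within low, against the single wild-type array 4 (adjusted p = 0.0461). Over all 8 arrays none of the other 28 further hypoxia targets measured passed. Of the 29, 16 of the 29 had means above wild type and 13 below, with a median difference of 0.01. At an unadjusted p under 0.05, 6 were higher (4.67% of all genes were) and 5 lower (6.17%), Ndrg1 included. The circadian repressor Bhlhe40 (0.29) and the oxidase Ero1a (0.19), which helps form disulfide bonds, had the next smallest p and did not pass (adjusted p = 0.221 and 0.226). Pgm2, a phosphoglucomutase, followed (0.18, adjusted p = 0.245). Ak4, a mitochondrial adenylate kinase chosen here after its values were seen, read 9.47, 9.28, 9.53 and 8.77 in wild type and 9.56, 9.67, 9.82 and 9.66 in Bcl6 cKO, with groups that did not overlap. Its difference of 0.42 ± 0.14 did not pass (adjusted p = 0.307). It was 0.13 within high Y-linked signal and 0.95 against wild-type array 4 within low, where it passed (adjusted p = 0.0435).

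Among 12 further genes of oxygen sensing 5 had means above and 6 below wild type, and none passed. Epas1, which encodes the related factor HIF2-alpha, read 7.73, 7.83, 7.80 and 7.85 in wild type and 7.46, 7.75, 7.48 and 7.52 in Bcl6 cKO (difference -0.25, adjusted p = 0.197), at means under the background level. Cul2, the scaffold of the VHL ubiquitin ligase, differed by 0.12 and Eloc, an adaptor of the same ligase, by 0.10. Of 27 further isoforms and regulators of glycolysis 15 had means above and 12 below, and none passed. Pdk2 had the smallest p of them (difference -0.26, adjusted p = 0.191). Txnip, a restraint on glucose uptake, read 10.62, 11.12, 10.61 and 11.42 in wild type and 10.49, 10.73, 10.31 and 10.23 in Bcl6 cKO. Its groups overlapped through Bcl6 cKO array 2, and its difference of -0.50 did not pass (adjusted p = 0.322). Pgp, a phosphatase that removes side products of glycolysis, differed by 0.16 (adjusted p = 0.418).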

How the data were processed

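RNA of 8 samples (100 ng each) was hybridised to 1 array each. Each deposited value is a log2 signal of 1 transcript cluster, made by the authors with RMA and Partek according to the submitters' processing notes. Their versions were not given in the sources used here. Where RMA ran in its usual form it shares 1 distribution over all arrays and compresses differences of dim genes. Arrays have no read depth; their number limits the precision, and the median SE of a difference was 0.07 in the 32 genes.

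Of 35556 clusters, 21789 name 1 gene, 1621 several and 12146 none. For each of 19938 genes the brightest cluster was kept. Groups were compared with limma 3.58.1 (R 4.3.3; lmFit, eBayes without trend, no covariate, no filter), adjusted over all genes. The steps were tested on simulated data with independent noise for each gene and the same spread on every array. An array that stands apart from the rest was not simulated. The members and lists were chosen with earlier results of these data known. Every member is reported, with array values where the unadjusted p was under 0.05 or the smallest of its role group and for other members picked after their values were seen; pathway lists give the 3 smallest p-values. Alternatives were moderation, array weights, scaling, filters, clusters, sex read from Y-linked genes, replicate number and each array left out; choosing clusters by chromosome was added after seeing the data. Means of both groups under 8.12 were called not shown above background.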

Additional observations from a re-analysis of the deposited data

Results flagged for a closer look

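Within groups of 4 arrays, Dixon's criterion was applied to the gap to the nearest array over the whole range. By it, 7 of 66 gene and group pairs had 1 array apart from the rest. Chance gives about 1 in 20 for independent pairs. Genes read on the same array are not independent, and the share over all genes was not computed. No excess is therefore read from this count. Wild-type array 4 was the low one for Slc16a1 (11.18), Vegfa (8.52) and Higd1a (7.49). Bcl6 cKO array 1 was the low one for Slc2a1 (11.48), Pfkl (9.80) and Slc16a3 (9.10). Bcl6 cKO array 4 was the low one for Hif1a (12.81), in a group that spans 0.07. All but the last lie on the arrays that stand apart in the report.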

How the results depend on the processing

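Limits: 4 arrays a group, unstated sex and array 4 of wild type bound what these values can show. None of the 32 genes passed an adjusted p of 0.05 under any setting tried, nor 0.1 or 0.2 in the fit reported. The smallest adjusted p was under 0.1 within low Y-linked signal (0.0515, Slc16a1) and without Bcl6 cKO array 1 (0.0914, Hk2), and under 0.2 with array weights (0.126), without wild-type array 4 (0.148) and with the filter at the median (0.186). Of 637 values of the 32 genes in the 20 settings outside the Y-linked split, 634 moved by less than 1 SD and 32 changed sign. None of the sign changes was in the 7 genes with an unadjusted p under 0.05. Changed moderation, the filters, the replicate block and the odd or even number leave each difference as it is, so those values could not move. The 7 genes were picked for differences that are large beside their SE, so their unchanged signs are a description only. The genes with a higher mean at an unadjusted p under 0.05 numbered 4, and 2 with sex as a term, 1 with sex and odd or even number (770 of all genes), and 0 and 12 within high and low Y-linked signal. Without 1 array they numbered 0 to 6 (630 to 1160 of all genes): 0 without Bcl6 cKO array 4, and 2 without wild-type array 4, Bcl6 cKO array 2 or Bcl6 cKO array 3. Those with a lower mean numbered 3, 1 with sex and odd or even number (1039 of all genes) and 0 within low Y-linked signal, and 1 to 4 without 1 array (894 to 1370 of all genes; 1 without wild-type array 2 or Bcl6 cKO array 2). The median difference of the 32 genes was 0.03, -0.07 within high and 0.18 within low Y-linked signal, and 0.00 (0.001) to 0.06 without 1 array.

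Over all genes 21 passed higher and 23 lower. The counts higher were 5 with sex, 33 with odd or even number, 5 with both, 0 and 32 within high and low Y-linked signal, 42 and 118 at an adjusted p of 0.1 and 0.2, and 5 to 39 without 1 array. The counts lower were 61 with trend and robust moderation, 51 with array weights, 13 after median centring, 14 after quantile normalization, 42 and 52 with the filters, 5 with sex, 60 with odd or even number, 5 with both, 0 and 11 within the Y-linked split, 90 and 303 at the looser thresholds, and 5 to 100 without 1 array. In the fit with a replicate block 5 of the 32 genes were higher and 4 lower at an unadjusted p under 0.05 (1066 and 1413 of all genes). The block cannot change the median difference of 0.03. Same-numbered arrays correlated at 0.07, 0.21, 0.20 and 0.20 in their deviations from the group means. Pairs of unlike number ranged from -0.24 (wild-type array 2 with Bcl6 cKO array 3) to 0.19 (wild-type array 3 with Bcl6 cKO array 1). Arrays numbered 2, 3 and 4 correlated best with the same number, and those numbered 1 did not. The sources do not state that the numbers mark pairs, so the main fit did not pair them. Whether the numbers mark a batch was not tested. The cause of these shifts was not tested.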

Other observations

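Pathways that branch from or follow glycolysis, and growth signalling to it, were read from lists of the same kind. None of the 52 genes measured in them passed an adjusted p of 0.05 (limma). Of 9 pentose phosphate and ribose genes 6 had means above wild type and 2 below. Prps1, which makes the ribose donor of nucleotides, read 11.50, 11.69, 11.67 and 11.49 in wild type and 11.63, 12.19, 11.79 and 12.03 in Bcl6 cKO (difference 0.32, adjusted p = 0.306). Rpia, ribose 5-phosphate isomerase, differed by 0.19 and H6pd, the hexose 6-phosphate dehydrogenase of the endoplasmic reticulum, by -0.16. Of 25 genes of pyruvate entry and the tricarboxylic acid cycle 19 had means above wild type and 5 below, with a median difference of 0.03. Sdhb, the iron-sulfur subunit of succinate dehydrogenase, read 11.38, 11.33, 11.14 and 11.18 in wild type and 11.50, 11.54, 11.57 and 11.64 in Bcl6 cKO. Its groups did not overlap and its difference of 0.31 came closest in that list (adjusted p = 0.103). Idh3a differed by 0.14 and Pcx by 0.15.

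Of 18 genes of growth signalling 9 had means above and 9 below wild type. Pik3cd, the main PI3 kinase catalytic subunit of lymphocytes, read 11.59, 11.50, 11.54 and 11.54 in wild type and 11.40, 11.30, 11.29 and 11.29 in Bcl6 cKO, with groups that did not overlap (difference -0.22, adjusted p = 0.116). Myc read 12.86, 12.78, 12.87 and 12.69 in wild type and 12.85, 12.96, 13.05 and 13.01 in Bcl6 cKO, and, as with Tpi1, Hk2, Slc16a1 and Egln3, Bcl6 cKO arrays 2 to 4 were above all wild-type arrays and array 1 was not, a difference of 0.17 (adjusted p = 0.35). Prkab1, a regulatory subunit of the energy sensor AMPK, differed by -0.12. The order seen for Myc held for 7 of the 32 glycolysis and hypoxia genes (Hk2, Pfkl, Tpi1, Pkm, Slc16a1, Egln1 and Egln3) and for 5.67% of all genes.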
